A study of Caenorhabditis elegans with 12 samples.

Results

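The regions described here are the H3K9me2 peaks of the *jhdm-1* experiment that had no peak of the *wdr-5* experiment nearby. They were chosen by position alone: a peak of the *jhdm-1* list belonged to them when more than 1000 bp lay between its edges and every peak of the *wdr-5* list on the same chromosome. By this rule 2041 of the 5883 peaks in the *jhdm-1* list were selected, 34.7% of that list, out of 16340 peaks in both lists together. They are called *jhdm-1*-only peaks below. Of the other 3842 peaks in the list, 3258 overlapped a *wdr-5* peak by at least 1 bp and 584 lay up to 1000 bp from one.

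H3K9me2 is dimethylation of lysine 9 on histone H3, a mark of repressed chromatin. In *C. elegans* the enzyme MET-2 deposits it, and it is known to collect on the repeat-rich arms of the autosomes, which are tethered to the nuclear periphery, and to be sparser in the gene-dense chromosome centres and on the X chromosome. JHDM-1 is a putative demethylase of this mark, related to Epe1 of *S. pombe*. WDR-5 is a subunit of COMPASS, the complex that methylates lysine 4 of histone H3 at transcribed genes.

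ChIP-seq sequences the DNA pulled down with an antibody, here against H3K9me2. Both experiments used whole animals of mixed stages, grown on OP50 bacteria at 20 °C. In the *jhdm-1* experiment N2 wild type and *jhdm-1* mutants (allele ok2364) were each sampled in early and mid generations, with 2 replicates per group by the study's methods, and a peak had to be called in both replicates of a group to be kept. In the *wdr-5* experiment they were early-, mid- and late-gen populations of N2 and of *wdr-5* mutants (allele ok1417), with 3 replicates each. Both mutated genes are on Chromosome III. In early and mid generations, the labels give the same N2 data as replicate 2 of the *jhdm-1* experiment and replicate 3 of the *wdr-5* experiment. The lists therefore share part of their N2 data and are not independent. Each deposited list is a union over all groups of its experiment, so whole-animal peaks from any genotype, generation, tissue or stage stand side by side and a *jhdm-1*-only peak is not a peak shown to be specific to *jhdm-1* mutants. The lists hold positions only. The depth of the libraries is unknown, the level of H3K9me2 at a peak was not measured, and whether a region missing from the *wdr-5* list lacked the mark or fell below detection cannot be told apart. More groups and replicates stand behind the *wdr-5* list, and the part of this in the results was not tested.

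Because the positions of the same peaks chose the *jhdm-1*-only peaks, and because peaks are not replicates, the comparisons with the rest of the list are descriptions without a test. For length, middle position, gaps and neighbours, the number of chromosomes or chromosome parts that showed the same direction is given. Coordinates are on WS220/ce10, counted from 1.

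The *jhdm-1*-only peaks were shorter than the rest of the list. Their median length was 690 bp, with quartiles of 393 and 1068 bp, against 923 bp in the other peaks, with quartiles of 521 and 1551 bp. The ratio of the medians was 0.748. The 584 peaks that lay within 1000 bp of a *wdr-5* peak had a median of 620.5 bp, below that of the *jhdm-1*-only peaks, and the overlapping peaks had 983.5 bp. Among peaks without an overlap, those close to a *wdr-5* peak were thus no longer than those far from one. The *jhdm-1*-only peaks covered 1.77 Mb, or 26.6% of all bases under peaks of the list.

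**Figure D1:**
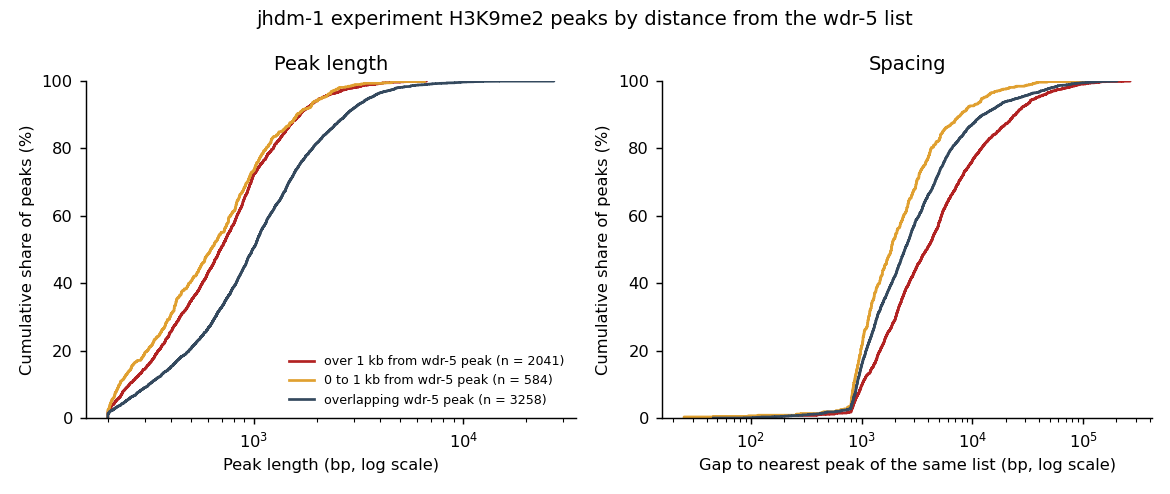
Cumulative share of *jhdm-1* list peaks (%) by peak length (left) and by gap to the nearest peak of the same list (right), both in bp on log scales. The curve of *jhdm-1*-only peaks (red, n = 2041) lies near that of peaks 0 to 1 kb from a *wdr-5* peak in length, and to the right of both other curves in spacing, with median gaps of 3871, 1859 and 2465 bp.

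The difference in length was seen on each of the 6 chromosomes. The median of the *jhdm-1*-only peaks ranged from 628 bp on Chromosome I to 733 bp on Chromosome IV, and that of the other peaks from 862 bp on Chromosome III to 1050.5 bp on Chromosome X. With every chromosome cut into 3 equally long parts, left, middle and right, the *jhdm-1*-only peaks had the lower median in 18 of 18 parts. Among 1 Mb windows with at least 5 peaks of each kind, they had the lower median in 81 of 87.

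Seen from the other side, the share of *jhdm-1*-only peaks fell as peaks became longer. It was 43.7% of the 1619 peaks under 500 bp and 39.8% of the 1936 peaks from there to below 1000 bp. It was 28.3% of the 1575 peaks from 1000 to below 2000 bp and 16.5% of the 686 peaks from there to below 5000 bp. Among the 67 broad peaks of 5000 bp or more, 5 were *jhdm-1*-only and 61 overlapped a *wdr-5* peak. At the other end, the shortest length in the list, 200 bp, was found at 36 *jhdm-1*-only peaks and at 54 others, or 1.76% and 1.41% of each. The *wdr-5* list also held peaks shorter than 200 bp. Without those, 2190 *jhdm-1* peaks were selected and the ratio of median lengths was 0.747.

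Length and the rule are not independent, since a longer peak reaches closer to its neighbours. When a peak was selected by its centre instead, so that its own length did not enter, 2291 peaks were selected and the median was 735 bp against 911 bp, a ratio of 0.807. This alternative was chosen after the lengths had been seen.

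The longest *jhdm-1*-only peaks outside Chromosome I are named here. The longest of all was 6673 bp long and lay at the left end of Chromosome IV, chrIV:3268-9940, where the nearest *wdr-5* peak was 1194 bp away. Next came a peak of 5991 bp on the right arm of Chromosome X, chrX:16381294-16387284, with 39317 bp to the nearest *wdr-5* peak. A pair of long peaks stood side by side in the left part of Chromosome V, near its border with the middle part. One was 5719 bp long, chrV:6392732-6398450, and the other 5195 bp, chrV:6402053-6407247, with a gap of 3602 bp between them. They lay 20064 and 11267 bp from the nearest *wdr-5* peak and belonged to the same run of 6 consecutive *jhdm-1*-only peaks. The last of the 5 was a peak of 4998 bp on Chromosome X, chrX:3567463-3572460, which lay 7249 bp from the nearest *wdr-5* peak. At 4 of these 5 peaks no more than 2 *wdr-5* peaks lay within 50 kb, against a median of 8 over all *jhdm-1*-only peaks. The peak on Chromosome IV had 4, but it starts at base 3268, so the chromosome end cuts its left flank short.

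The distance to the nearest *wdr-5* peak had a median of 5544 bp, with quartiles of 2415 and 15084 bp, and reached 289617 bp. Of the 2041 peaks, 377 lay 1 to 2 kb away, 586 lay 2 to 5 kb away, 379 lay 5 to 10 kb away and 300 lay 10 to 20 kb away. A further 278 lay at 20 to 50 kb, 92 at 50 to 100 kb and 29 beyond 100 kb. Most were therefore not near misses of the 1000 bp limit.

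At the limit itself the list ran on without a break. In the 500 bp below it there were 269 peaks, with a median length of 650 bp, and in the 500 bp above it 205, with a median of 676 bp. The *jhdm-1*-only peaks nearest to the limit lay 1001 bp away (chrIII:11512849-11513050, 202 bp long), 1002 bp away (chrIV:14517554-14518199, 646 bp long) and 1003 bp away (chrII:12762619-12762853, 235 bp long). The peaks just inside it, which were not selected, lay 990 bp away (chrIII:11008307-11008700, 394 bp long), 984 bp away (chrII:13856757-13857171, 415 bp long) and 981 bp away (chrIV:6141417-6142474, 1058 bp long).

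Peak length hardly varied with distance. The median was 646 bp at 1 to 2 kb, 684 bp at 5 to 10 kb, 723 bp at 20 to 50 kb and 794 bp at 50 to 100 kb, and it was 552 bp for the 29 peaks beyond 100 kb. Over all 2041 peaks, Spearman's rho between distance and length was 0.045, and Pearson's r on log10 values was 0.041, both given as descriptions of peaks that share the same libraries.

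Position varied with distance far more. Only 4.51% of the peaks at 1 to 2 kb lay in the middle part of their chromosome, against 20.7% at 10 to 20 kb, 46.7% at 50 to 100 kb and 89.7% beyond 100 kb. The X chromosome held 3.18% of the peaks at 1 to 2 kb and 41.4% of those beyond 100 kb. *wdr-5* peaks are sparse in both places, with 742 of 10457 in the middle parts and 524 on Chromosome X, so long distances can only occur where that list is thin.

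**Figure D2:**
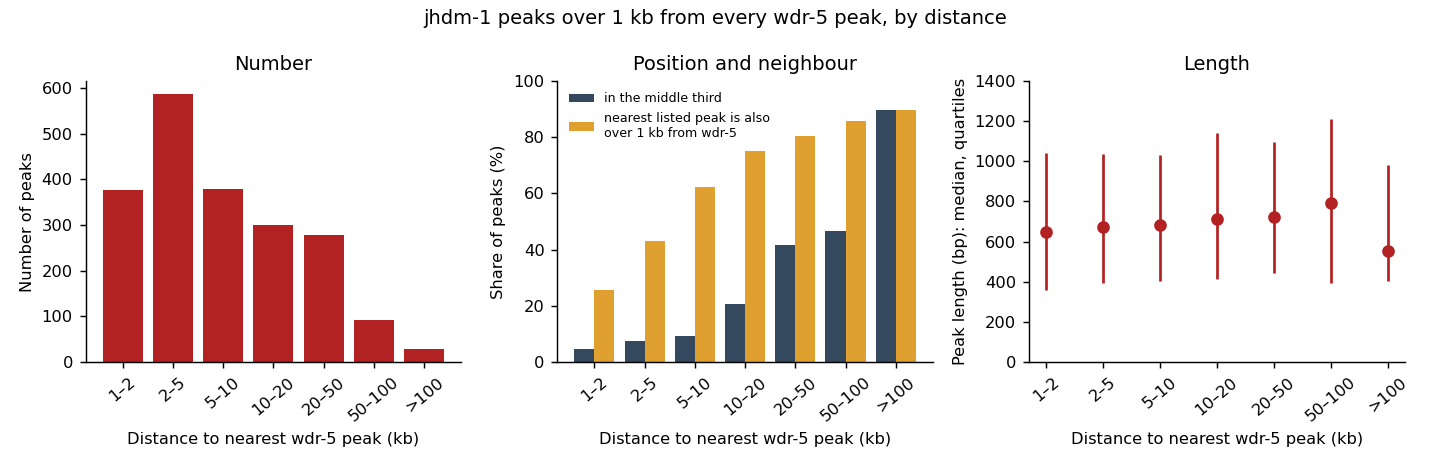
The *jhdm-1*-only peaks by distance to the nearest *wdr-5* peak (kb): the number of peaks (left), the share (%) that lay in the middle of 3 equal parts of the chromosome and whose nearest listed peak was also *jhdm-1*-only (centre), and the median length in bp with quartiles as bars (right). Both shares increased from class to class, which for the neighbours the rule largely fixes, from 4.51% to 89.7% and from 25.7% to 89.7%, and the medians stayed between 552 and 794 bp.

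The 5 peaks farthest from any *wdr-5* peak, Chromosome I included in the search, all lay in the middle parts of Chromosomes X and II and were 375 to 1102 bp long. The farthest lay 289617 bp away (chrX:9999172-10000038, 867 bp long), and the next was its neighbour at 211170 bp (chrX:10077384-10078485, 1102 bp long). On Chromosome II a peak of 375 bp lay 198639 bp away (chrII:5809971-5810345). A peak of 410 bp on Chromosome X followed at 183788 bp (chrX:7585473-7585882). The fifth was a peak of 546 bp on Chromosome II at 177159 bp (chrII:5831280-5831825). None of these had a *wdr-5* peak within 50 kb, which was the case at 121 *jhdm-1*-only peaks in all, or 5.93%.

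Along the chromosomes, the *jhdm-1*-only peaks were spread more towards the centres than the rest of the list, although most lay in the outer parts. The middle parts held 342 of them, 16.8%, and 254 of the other peaks, 6.61%. The outer parts held 1699, which were 32.1% of the 5287 *jhdm-1* peaks there. In the middle parts, 57.4% of the 596 *jhdm-1* peaks were *jhdm-1*-only. The share in the middle part exceeded that in both outer parts together on all 6 chromosomes, and it ranged from 42.3% on Chromosome V to 65.8% on Chromosome I. The rule favours this order, since the middle parts held only 742 of the 10457 *wdr-5* peaks.

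With every chromosome cut into 10 equal bins from left to right and the chromosomes pooled, the share of *jhdm-1*-only peaks was 30.3% in the leftmost bin and 23.2% in the one beside it. It was 43.4% in the next, between 55.0% and 63.0% in the 4 central bins, and 47.0%, 25.9% and 27.9% in the last 3. In the pooled bins the lowest shares were therefore not at the very ends but one step inside them, on both sides. The order was the reverse on Chromosomes I and X at the left end, and on Chromosomes I and IV at the right end.

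**Figure D3:**
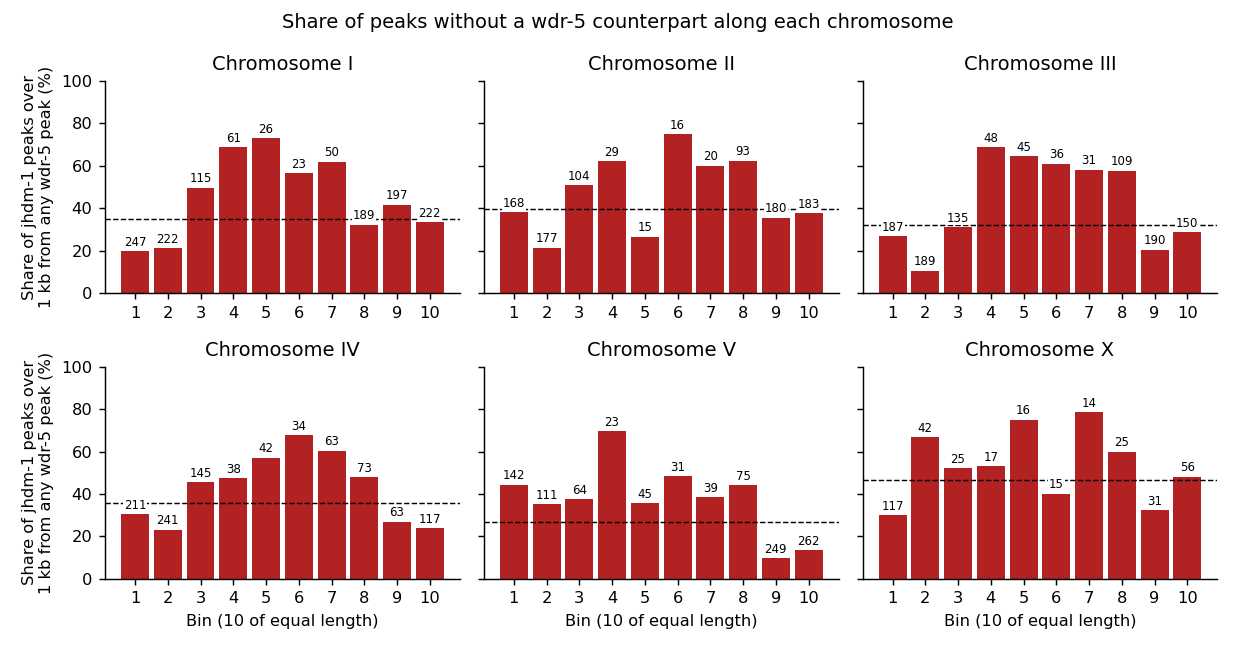
Share (%) of *jhdm-1* list peaks that were more than 1 kb from every *wdr-5* peak, in 10 equal bins along each chromosome from left to right. Numbers above the bars are the *jhdm-1* peaks in that bin, and dashed lines mark the share on the whole chromosome. Central bins are mostly the highest and hold few peaks, and Chromosome V is low in its last 2 bins, with 9.64% and 13.4%.

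With the chromosomes pooled, the left and right parts had similar shares, 31.7% and 32.6%, but on single chromosomes they differed, most on Chromosome V. On Chromosome V, 137 of 330 peaks in the left part were *jhdm-1*-only, 41.5%, against 99 of 607 in the right part, 16.3%, the lowest share of the 18 parts. The *wdr-5* list held 534 peaks in the left part of Chromosome V and 1695 in the right. On Chromosome III the right part, with 33.3%, exceeded the left, with 23.4%, and on Chromosome I the right part had 36.5% and the left 28.2%. On Chromosome II the shares were 35.6% on the left and 42.8% on the right. They lay closest together on Chromosome IV, with 31.2% on the left and 33.9% on the right. On Chromosome X they were 41.7% on the left and 48.3% on the right.

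Among whole chromosomes, Chromosome X had the highest share, 166 of 358 peaks or 46.4%, followed by Chromosome II with 392 of 985 or 39.8%. Chromosome IV had 369 of 1027, 35.9%, and Chromosome I had 475 of 1352, 35.1%. Chromosome III, which carries both mutated genes, had 359 of 1120, 32.1%, below the share in the list as a whole. Chromosome V was lowest with 280 of 1041, 26.9%. By density the order differed. Chromosome I held 31.6 *jhdm-1*-only peaks per Mb, Chromosome III 26.1 and Chromosome X only 9.37, so that the high share on X came with few peaks of either kind. Of all *jhdm-1*-only peaks 8.13% were on X, against 192 of the 3842 other peaks. The *wdr-5* list had only 524 peaks on X, and the rule favours a high share where that list is thin.

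Windows of 1 Mb gave the same picture at a finer scale. Of 103 windows, 96 held at least 10 *jhdm-1* peaks, and in these the share of *jhdm-1*-only peaks had a median of 43.0%, with quartiles of 30.2% and 57.9%. It exceeded 50% in 31 windows. No window was without a *jhdm-1*-only peak. The share fell with the number of *wdr-5* peaks in the window (Spearman's rho −0.72, Pearson's r −0.74, 96 windows), which the rule favours, since more *wdr-5* peaks leave less room.

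**Figure D4:**
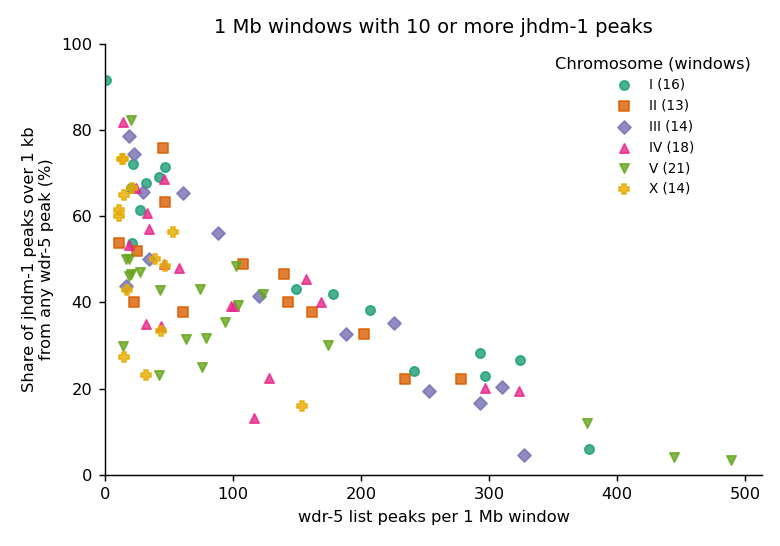
Share (%) of *jhdm-1* peaks that were more than 1 kb from every *wdr-5* peak against the number of *wdr-5* peaks, in 96 windows of 1 Mb with at least 10 *jhdm-1* peaks, by chromosome. Shares go down from the left to the right, and windows with few *wdr-5* peaks scatter widely, from under 30% to over 90%.

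Outside Chromosome I, the window with most *jhdm-1*-only peaks was chrIII:10000001-11000000, where 55 of 98 peaks, 56.1%, were *jhdm-1*-only. It held 88 *wdr-5* peaks. In chrII:11000001-12000000 there were 47 of 62, 75.8%, beside 45 *wdr-5* peaks. Also 47 were found in chrIII:1-1000000, but there they were 35.3% of 133 peaks, beside 226 *wdr-5* peaks, and in chrIV:3000001-4000000, where they were 40.2% of 117 peaks. Large numbers of *jhdm-1*-only peaks thus occurred both where the *wdr-5* list was thin and where it was dense.

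Among the same 96 windows, those with the lowest shares, named after their values were seen, lay on the right arm of Chromosome V and the left arm of Chromosome III. In chrV:18000001-19000000, 5 of 144 peaks were *jhdm-1*-only, 3.47%, and in chrV:19000001-20000000, 6 of 142, 4.23%. These windows held 489 and 444 *wdr-5* peaks. In chrIII:1000001-2000000 it was 7 of 150, 4.67%, beside 327 *wdr-5* peaks. Among windows with at least 10 *jhdm-1* peaks, the highest share outside Chromosome I was in chrV:6000001-7000000, with 14 of 17 peaks, 82.4%. That window holds the pair of long peaks of 5719 and 5195 bp, and its *jhdm-1*-only peaks had a median length of 1008.5 bp. The few other peaks there had a median of 839 bp, so the order of lengths was reversed in this window.

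The *jhdm-1*-only peaks were more widely spaced than the rest of the list. The gap to the nearest peak of the same list had a median of 3871 bp, with quartiles of 1708 and 9391 bp, against 2355.5 bp in the other peaks, with quartiles of 1203 and 5112.75 bp. The ratio of the medians was 1.64, and the direction was the same on all 6 chromosomes. Gaps above 10 kb on both sides were found at 481 *jhdm-1*-only peaks, 23.6%, and at 462 others, 12.0%. Close neighbours within 1 kb were found at 197, 9.65%, and at 627 others, 16.3%. The rule favours wider gaps, since a selected peak must keep 1000 bp from *wdr-5* peaks and most other peaks overlap one. With no distance required beyond the lack of an overlap, the ratio of the medians was 1.26.

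The difference was also seen within the outer parts, where most of the peaks lay. There the median gap was 3251 bp at *jhdm-1*-only peaks and 2251 bp at other peaks. In the middle parts of all chromosomes pooled the order turned, with 10303.5 and 11469 bp, although on Chromosomes I and X the *jhdm-1*-only peaks kept the wider median gap there. Over the 18 parts the *jhdm-1*-only peaks had the wider median gap in 14, and within 1 Mb windows in 56 of 87. On Chromosome X the medians were 12492 and 4429.5 bp, the largest difference among the chromosomes.

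The *jhdm-1*-only peaks tended to neighbour each other. At 1139 of them, 55.8%, the nearest peak of the list was also *jhdm-1*-only, against 870 of the other peaks, 22.6%, and 34.1% of the list as a whole. The direction was the same in 18 of 18 chromosome parts. Regions rich in such peaks raise this share by themselves: among the other peaks of its own 1 Mb window, a *jhdm-1*-only peak had on average 43.8% that were *jhdm-1*-only. The observed 55.8% was above that, and in 66 of 87 windows the share with a *jhdm-1*-only neighbour was higher among *jhdm-1*-only peaks than among others. The rule favours this excess, as it selects neighbours in the same *wdr-5*-free stretch together. Windows of 1 Mb cannot remove that part, since such stretches with a *jhdm-1*-only peak had a median of 18.1 kb. The share with a *jhdm-1*-only neighbour was 25.7% at 1 to 2 kb from the *wdr-5* list, 62.3% at 5 to 10 kb and 89.7% beyond 100 kb. The rule largely fixes this order, since a peak that lies well inside a stretch free of *wdr-5* peaks has neighbours that are selected as well.

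When the list was read along each chromosome, the *jhdm-1*-only peaks formed 967 runs of consecutive peaks with no other *jhdm-1* peak between them. Of these, 521 were single peaks, which made up 25.5% of the *jhdm-1*-only peaks. Runs of 3 or more numbered 254 and held 1136 peaks, 55.7%. The other peaks, which are the larger set, formed 966 runs that were longer, with 9.06% as single peaks and 80.3% in runs of 3 or more. The mean run was 2.11 peaks long for *jhdm-1*-only peaks and 3.98 for the others, and the longest were 19 and 87. There were 81 runs of 5 or more, with 564 peaks, and 11 runs of 10 or more, with 131 peaks. A run is not a domain free of the mark in the other experiment. Only 20 of the 81 runs of 5 or more had no *wdr-5* peak inside, and in the others *wdr-5* peaks lay between the *jhdm-1*-only peaks, more than 1000 bp from each.

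The longest run held 19 peaks on the right arm of Chromosome II, chrII:11565868-11783680, a stretch of 218 kb within the window of 75.8% named above. Its peaks were 204 to 2354 bp long, with a median of 784 bp, and covered 7.70% of it. They lay between 4092 and 44751 bp from the nearest *wdr-5* peak. That list had 5 peaks inside the stretch, so both experiments had peaks here, at different places. The longest peaks of the run were chrII:11727947-11730300, with 2354 bp, and chrII:11632762-11635024, with 2263 bp, and the latter was also the farthest from the *wdr-5* list.

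A run of 12 on the left side of Chromosome II, chrII:3604121-3745339, spanned 141 kb. Its peaks were 235 to 1621 bp long, with a median of 831.5 bp, and lay 1372 to 29440 bp from the 6 *wdr-5* peaks inside the stretch or those around it. A run of the same size in the middle part of Chromosome III, chrIII:5478883-5630939, spanned 152 kb and had no *wdr-5* peak inside. Here the peaks were 217 to 1528 bp long, with a median of 748.5 bp, and lay 5937 to 78073 bp from that list. The nearest peaks on both flanks were called in both experiments. On Chromosome I, 2 further runs held at least 12 peaks.

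By closeness instead, with *jhdm-1* peaks linked when at most 5 kb apart, 1278 *jhdm-1*-only peaks, 62.6%, fell in 1038 groups that held no other kind of peak. Of these groups 859 were single peaks and the largest held 5. The remaining 763 peaks, 37.4%, were in 513 mixed groups. There they were linked to peaks that overlapped a *wdr-5* peak or lay up to 1000 bp from one. With links of up to 5 kb, most groups of *jhdm-1*-only peaks alone were thus single peaks. Groups without any such peak were mostly single as well, 995 of 1563, although the largest of those held 15.

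The *wdr-5* list left 10462 stretches free of its own peaks, and 1228 of them held at least 1 *jhdm-1*-only peak. In 783 of these there was exactly 1, in 39 there were 5 or more, and the most was 12. Stretches over 50 kb numbered 429 and took up 45.9% of the chromosomes. Of these 62.9% held a *jhdm-1*-only peak, and together they held 648, 31.7% of all. The widest stretch with such a peak was chrX:9627397-10289655, 662 kb with 2 of them, the pair farthest from any *wdr-5* peak. In chrII:7923938-8456608, 533 kb, there was 1, of 1534 bp. In chrII:5542992-6008984, 466 kb, there were 6, with a median of 664 bp.

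The *wdr-5* peaks nearest to the *jhdm-1*-only peaks were of all kinds. Their median length was 407 bp, against 495 bp in the *wdr-5* list as a whole. They were 1407 different peaks, many of them nearest to several *jhdm-1*-only peaks. Counted per *jhdm-1*-only peak, the nearest *wdr-5* peak was itself more than 1000 bp from every *jhdm-1* peak in 46.3% of cases and overlapped a *jhdm-1* peak in 43.6%. Counted per peak, these kinds made up 44.2% and 41.0% of the *wdr-5* list. The rest, without an overlap but no more than 1000 bp from a *jhdm-1* peak, made up 10.1% of cases and 14.8% of the list. The reverse set, the 4625 *wdr-5* peaks more than 1000 bp from every *jhdm-1* peak, also lay more towards the centres, by a smaller margin. The middle parts held 7.83% of that set and 6.52% of the other *wdr-5* peaks. On Chromosome X the shares were nearly equal, 5.02% and 5.01%. Like the *jhdm-1*-only peaks, they were shorter than the rest of their list, with medians of 448 and 554 bp. They also had wider gaps to the nearest peak of their list, with medians of 830 and 462 bp, and their nearest peak was more often of the same set, in 71.3% against 18.4%, so neither trait was particular to the *jhdm-1*-only peaks.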

How the data were processed

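H3K9me2 ChIP-seq libraries and inputs of both experiments were represented by 1 peak list each. The authors filtered the reads (single-end, 50 or 75 bp), aligned them to WS220/ce10 with Bowtie2 and called peaks in each replicate with MACS2 2.1.1 in broad mode at q 0.01. They kept peaks present in at least 2 replicates of a genotype and generation and deposited the union, as chromosome, start and end, with no score, coverage or depth. No per-sample column exists to map, and no group could be compared with another. A called peak is a thresholded region, so differences in depth between libraries can change which peaks are listed.

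Gaps were counted in bp between edges. The selection was repeated with bedtools 2.31.1, which gave the same 2041 peaks. Python 3.11.15, numpy 2.4.6, pandas 2.3.3 and scipy 1.17.1 were used, and the interval functions were tested on simulated lists. The length of a chromosome was taken as the end of the rightmost peak found in the 2 lists. Neither list held overlapping peaks. Named regions followed a rule: the 5 longest *jhdm-1*-only peaks, the 5 farthest from a *wdr-5* peak, 3 on each side of the limit, the 3 largest runs, the 3 widest *wdr-5*-free stretches and the 3 richest 1 Mb windows. Positions on Chromosome I are not printed, while counts include it. The regions, comparisons and lists were chosen with earlier results of these data known. The gene table at hand is on WBcel235, another build, so peaks carry no gene annotation here and no sequence was read.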

Additional observations from a re-analysis of the deposited data

How the results depend on the processing

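Of 51 alternatives to 8 results, 26 stayed within the 95% interval of the value (within 1.5 times, for the number of peaks), 25 moved further and none reversed. Peaks are not independent, so these intervals serve only as a yardstick. The number of *jhdm-1*-only peaks was between 1664 and 2625 except with a limit of 5000 bp, which by construction left 1078. Their share of the list was 44.6% with no distance required beyond the lack of an overlap, 28.3% with a limit of 2000 bp and 50.2% after peaks shorter than 500 bp were dropped from each list, which leaves fewer *wdr-5* peaks to meet. In the same order, the share on the outer parts was 86.4%, 80.5% and 85.4%, and it was 66.7% with the outermost of 4 parts counted. Other peaks were more often on the outer parts under each. The share on Chromosome X was 6.97% with no distance required. The ratio of median lengths was 0.687 with no distance required, 0.820 for peaks of at least 500 bp, 0.711 with peaks within 1 kb merged, 0.681 by means, 0.702 against overlapping peaks only and 0.807 by peak centres. The ratio of median gaps was 1.26 with no distance required, 2.03 with 2000 bp and 1.33 between centres. The share with a *jhdm-1*-only neighbour was 70.2% for peaks of at least 500 bp and 53.5% with merging. The share in runs of 3 or more was 58.4% with no distance required, 73.1% for peaks of at least 500 bp and 53.2% with merging. Runs of 2 or more held 74.5%, and runs of 5 or more 27.6%. Unless stated, the cause was not tested. No paired analysis was possible because each list pools all replicates, and for that reason no replicate could be left out.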
